A study of Mus musculus with 2 samples.

Results

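Conventional CD4 T cells of the mouse kidney, the T cells that carry Cd4 and lack the regulatory T cell factor Foxp3, were compared between a kidney injured with folic acid (FA) and a control kidney. A barcode was selected on its own counts of unique molecular identifiers (UMIs). It needed at least 500 UMIs, at least 200 genes and a mitochondrial share of at most 50%. It also needed 2 or more UMIs over Cd3d, Cd3e and Cd3g, 1 or more of Cd4, none of Foxp3, Cd8a or Cd8b1, and fewer than 5 over C1qa, C1qb and C1qc. The rule found 411 cells among 22217 barcodes that passed the first 3 limits and 28678 deposited barcodes, 316 in the FA library and 95 in the control library. Because the members were chosen by these 10 genes, no result is drawn from them.

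Single-cell suspensions of kidney were captured in droplets, with 1 library of an FA-treated wild-type kidney (folic acid nephropathy) and 1 library of a control kidney, also wild type. Neither label gives a dose, a time after FA, an age, a sex or a number of animals, and the series concerns the pore-forming gasdermins GSDMD and GSDME in this injury. With 1 library per group no test was run: every difference is between these 2 libraries, and intervals are exact, at 95%, and cover counting error only. Fewer transcripts per cell and fewer cells that use a gene cannot be told apart in summed counts.

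CD4 helper T cells recognise peptides on MHC class II and act on other cells through surface ligands such as CD40 ligand and through secreted cytokines. Subsets are known by their products: interferon gamma for Th1 cells, IL-4 and IL-13 for Th2 cells, and IL-17A for Th17 cells. Signals from the T cell receptor and from costimulatory receptors reach the transcription factor NF-kB, which induces its own inhibitors. Folic acid at high dose injures kidney tubules and is used as a mouse model of acute injury and later fibrosis, with T cells among the infiltrating leukocytes.

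The members formed 1.98% of kept FA barcodes (Clopper-Pearson interval 1.77 to 2.21) and 1.51% of kept control barcodes (1.22 to 1.84). Of cells with 2 or more Cd3 UMIs they formed 14.38% in FA (12.94 to 15.91) and 15.01% in control (12.32 to 18.03), so this share did not differ beyond counting error. Most members lay at the edge of the rule: 218 FA and 64 control cells held exactly 1 Cd4 UMI, and 31 FA and 0 control cells held exactly 2 Cd3 UMIs. Just outside it lay 25 FA and 2 control cells with 1 Cd3 UMI, 22 FA and 13 control cells that also held a Cd8 UMI, and 5 FA and 4 control cells with 5 or more C1q UMIs. A further 884 FA and 206 control Cd3 cells had no Cd4, Cd8 or Foxp3 UMI. Cd40lg, a helper cell gene that the rule did not use, stood at 135 CPM (the gene's UMIs over all UMIs of the cells summed, times 1000000) in those FA cells and 102 CPM in those control cells. It stood at 14.98 CPM in FA and 6.54 CPM in control cells of the CD8 gate (Cd3 cells with a Cd8 UMI and no Cd4 UMI), against 185 CPM in FA and 149 CPM in control members, and at 0.245 CPM in FA and 0 CPM in control B cells. Icos and Tnfsf8, the other labelled markers outside the rule, were also above the CD8 gate in each library. The label thus held against the CD8 gate, but these values do not tell conventional from regulatory CD4 T cells. The counts of members are counts of cells in which Cd4 was captured.

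Depth was close: members held a median of 3191 UMIs and 1421 genes in FA, and 3509 UMIs and 1485 genes in control. A few very large barcodes weighed on the control sums. Members with over 10000 UMIs were 9 FA cells with 8.94% of all member UMIs and 7 control cells with 29.9%, and 1 control cell of 37986 UMIs held 8.07%. That control cell carried 176 of the 177 control UMIs of Upk3a and every control UMI of Krt18, genes of urothelium and simple epithelium. Of 54 barcode sequences that both libraries used, 2 FA members and 1 control member held one, and no sequence was shared between members. FA members held 1633 UMIs of Xist, the RNA of the silenced X chromosome, and control members 0, and the Y-linked Ddx3y had 0 in FA and 58 in control members, so treatment and this sex difference cannot be told apart.

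Over the 7963 genes with 20 or more UMIs in the members of both libraries together, the median log2 ratio of FA over control was 0.01. A gene was counted at a ratio of 1.5 or its inverse: 1515 genes, 19.0%, were higher in FA and 1420, 17.8%, were lower. The interval lay above 1 for 818 of the higher genes and below 1 for 742 of the lower genes. Both counts moved by over 1.5 times in some settings: thinning every cell to 1000 UMIs gave 804 higher and 476 lower genes, and keeping members with 2 or more Cd4 UMIs gave 923 higher and 830 lower. The lower count was also 863 without likely doublets, 883 without members that held a marker UMI of another cell type, and 835 with the cell richest in each gene left out. The list counts that follow are to be read beside those 2 percentages.

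Helper ligands and costimulatory receptors came first. Cd40lg, whose product licenses B cells and dendritic cells, had 223 UMIs (185 CPM, 161 to 211) in FA members and 70 UMIs (149 CPM, 116 to 188) in control members. Its ratio of 1.24 (0.946 to 1.65) was not separated from 1, and with every cell thinned to 1000 UMIs a Cd40lg UMI was found in 13.3% of FA members (9.78 to 17.6) and 20% of control members (12.5 to 29.5), against 40.8% of FA and 43.2% of control members unthinned. Icos, a costimulatory receptor of activated T cells, had 623 UMIs (516 CPM) in 190 FA members and 108 UMIs (229 CPM) in 39 control members, a ratio of 2.25 (1.83 to 2.79). Thinned shares were 35.9% in FA (30.6 to 41.4) and 16.8% in control (9.94 to 25.9), with 0 of 655 FA and 0 of 353 control cells of a B cell gate as a gauge of free RNA. Taken as 3 counts of the total, those zeros allow shares of up to 0.458% of FA and 0.850% of control B cells with a UMI, and the exact upper limits are 0.562% and 1.04%. Thinning left out 1 FA and 0 control members and 7 FA and 5 control B cells with fewer UMIs; median depth of the B cells was 2575.5 UMIs in FA and 4091.5 UMIs in control. Unthinned, 60.1% of FA and 41.1% of control members held Icos.

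The larger difference was in Tnfrsf4, which encodes OX40, a survival receptor induced after T cell activation. Tnfrsf4 had 300 UMIs (248 CPM) in 136 FA members and 19 UMIs (40.3 CPM) in 11 control members, a ratio of 6.16 (3.87 to 10.4). Its thinned share was 19.0% of FA members (14.9 to 23.8) and 3.16% of control members (0.656 to 8.95), and no thinned B cell of either library held it; unthinned shares were 43.0% of FA and 11.6% of control members. Tnfsf8, the ligand of CD30, had a ratio of 2.92 (2.13 to 4.08), from 279 CPM in FA and 95.6 CPM in control members. Tnfrsf18, which encodes the receptor GITR, had 175 CPM in FA and 78.6 CPM in control members. Tnfrsf9, which encodes 4-1BB, had 34 UMIs in 26 FA members and 0 in control members. That is 4.42-fold higher with the 0 of the control members set to 3 counts, a value without an interval. Cd28, the receptor of the classical second signal, stood at 589.5 CPM in FA and 529 CPM in control members, a ratio of 1.11 (0.964 to 1.29). Cd27 ran the other way, with 57 UMIs (47.2 CPM) in FA and 59 UMIs (125 CPM) in control members, 2.65-fold lower (1.81 to 3.89). Cd2, an adhesion receptor, was 269.9 CPM in FA and 322.8 CPM in control members (0.836, 0.688 to 1.02). In all, 6 of 12 costimulatory genes were higher in FA and 1 was lower, with a median log2 ratio of 0.84. In the CD8 gate 7 of the 12 were higher and 1 lower, with a median of 1.11. There 12.8% of all measured genes were higher and 20.9% lower. Icos had a ratio of 3.17 in that gate and Tnfrsf4 of 2.86.

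Of the 20 activation and effector memory genes, 13 were higher in FA and 0 lower, with a median log2 ratio of 1.09. They include the receptor-induced nuclear factors Nr4a1 (498 CPM in FA, 242 CPM in control), Nr4a2 (197 and 87.1 CPM in FA and control) and Nr4a3 (187 and 46.7 CPM in FA and control). Irf4, a factor of effector differentiation, had 87 UMIs in 58 FA members and 11 UMIs in 3 control members, of which 81.8% came from 1 cell. Cd69, an early activation marker also used to mark resident cells, stood at 777 CPM in FA and 609 CPM in control members, a ratio of 1.27 (1.12 to 1.46), below the fold used. Maf, a factor of cytokine programmes, was 492.6 CPM in FA and 407.7 CPM in control members (1.21, 1.03 to 1.43). Cd44, an adhesion receptor of memory cells, was 189 CPM in FA and 153 CPM in control members, a ratio of 1.23 (0.943 to 1.63). Leaving out members with over 10000 UMIs took the median of the list to 0.80. In the CD8 gate 12 of the 20 genes were higher in FA and 1 lower, with a median log2 ratio of 1.11. Over all genes measured in that gate 12.8% were higher and 20.9% lower.

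**Figure D1:**
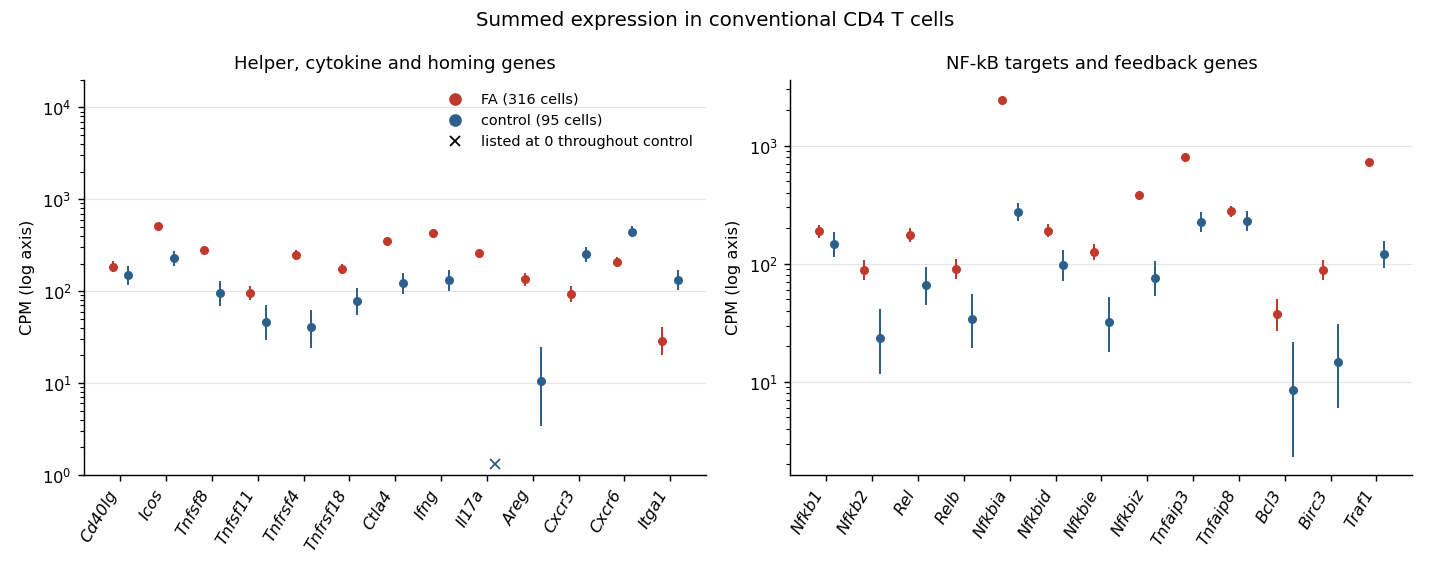
Summed expression (CPM, log axis) of helper, cytokine and homing genes (left) and of the NF-kB list (right) in conventional CD4 T cells, FA in red and control in blue, with exact 95% Poisson intervals; a cross marks a gene listed at 0 throughout the control library. Tnfrsf4, Ctla4, Ifng, Nfkbia and Traf1 lie higher in FA, Cxcr3, Cxcr6 and Itga1 lie lower, and the Cd40lg intervals overlap.

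Genes of the NF-kB pathway formed the list with the highest median, here and in 14 of 16 alternatives; the Th2 list, with 5 measured genes, was above it without members holding markers of other cell types (2.04 against 1.91) and with 2 or more Cd4 UMIs (1.65 against 1.51). Of 13 genes, 11 were higher in FA and 0 lower, all 11 with intervals above 1, and the median log2 ratio was 1.92. Nfkbia, which encodes the inhibitor IkBa and is induced by the factor it restrains, had 2967 UMIs (2457 CPM) in 284 FA members and 129 UMIs (274 CPM) in 46 control members, a ratio of 8.97 (7.52 to 10.8). Thinned shares for Nfkbia were 76.8% of FA members (71.8 to 81.4) and 20% of control members (12.5 to 29.5), with 37.9% of FA and 27.5% of control B cells; unthinned they were 89.9% of FA and 48.4% of control members. B cells also use Nfkbia, so their share is no gauge of free RNA for this gene. Traf1, an adaptor of TNF receptors, had 873 UMIs (723 CPM) in FA and 57 UMIs (121 CPM) in control members, a ratio of 5.97 (4.57 to 7.95). Tnfaip3, which encodes the inhibitory enzyme A20, had 965 UMIs (799 CPM) in FA and 107 UMIs (227 CPM) in control members, a ratio of 3.52 (2.88 to 4.34). Birc3 (6.02), Nfkbiz (4.96), Bcl3 (4.39), Nfkbie (3.95) and Nfkb2 (3.79) followed by ratio, and the subunit genes Rel and Relb were each at 2.68. Nfkb1 (1.28, 0.976 to 1.70) and Tnfaip8 (1.21, 0.969 to 1.51) stayed under the fold used.

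Genes of the list were also higher in FA outside these cells. In the CD8 gate 12 of the 13 genes were 1.5-fold or more higher in FA, with a median log2 ratio of 1.34; over the 10737 genes measured in that gate 12.8% were higher and 20.9% lower, and the counts in the CD8 gate given here are to be read beside these shares. Nfkbia stood at 1096 CPM in FA and 332 CPM in control cells of the gate. Other T cells came closer to the members. Cd3 cells with no Cd4, Cd8 or Foxp3 UMI had 2262.5 CPM of Nfkbia in FA and 437 CPM in control. Those that also held a UMI of Trdc, a gamma delta chain, had 2095 CPM in FA and 611 CPM in control. In all other kept barcodes Nfkbia stood at 770 CPM in FA and 209 CPM in control. The median of the list in the members was 1.62 without cells over 10000 UMIs and 1.91 without members holding a UMI of another cell type's markers.

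Promoter sequence is shown for 3 of these genes, since genes that NF-kB induces as its own feedback are known to carry its binding motif near their starts. The windows are the 250 bases before the transcription start in the RefSeq table of build GRCm38.p6, and capitals mark matches to the motif GGG, any 3 bases, TTCC, or to its reverse complement GGAA, any 3 bases, CCC, searched on both strands. Nfkbia encodes the inhibitor IkBa, Tnfaip3 the inhibitor A20 and Rel a subunit of the factor.
Nfkbia, minus strand, chr12:55492648-55492897: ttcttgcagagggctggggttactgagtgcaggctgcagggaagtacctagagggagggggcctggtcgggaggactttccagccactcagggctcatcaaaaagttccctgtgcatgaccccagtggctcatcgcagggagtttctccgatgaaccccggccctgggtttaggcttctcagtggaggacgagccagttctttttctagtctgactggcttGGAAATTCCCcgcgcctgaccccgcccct
Tnfaip3, minus strand, chr10:19015411-19015660: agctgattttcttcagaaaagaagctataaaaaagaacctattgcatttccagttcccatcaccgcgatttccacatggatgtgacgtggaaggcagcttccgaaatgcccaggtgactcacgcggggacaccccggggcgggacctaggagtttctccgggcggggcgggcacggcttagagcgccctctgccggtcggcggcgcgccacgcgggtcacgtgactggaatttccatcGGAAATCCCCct
Rel, minus strand, chr11:23770970-23771219: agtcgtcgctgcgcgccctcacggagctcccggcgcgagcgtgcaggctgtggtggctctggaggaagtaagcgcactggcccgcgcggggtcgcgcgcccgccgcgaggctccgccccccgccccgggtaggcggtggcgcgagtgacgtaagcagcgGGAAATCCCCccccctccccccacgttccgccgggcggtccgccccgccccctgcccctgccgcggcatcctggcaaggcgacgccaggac
The match begins 29 bases before the start in Nfkbia, 12 bases before it in Tnfaip3 and 91 bases before it in Rel. Of the 13 list genes 9 were matched by symbol in the table, and 6 of these held the motif in at least 1 of their windows; a second Tnfaip3 window also held 1. Over all 27025 genes with a full window, 1434 (5.31%) held it. Counted by window, 9 of the 14 windows of the list held it, against 1527 of 32851 (4.65%). These are matches of letters and not measured binding; Birc3, Traf1 and Bcl3 held no match in their windows.

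**Figure D2:**
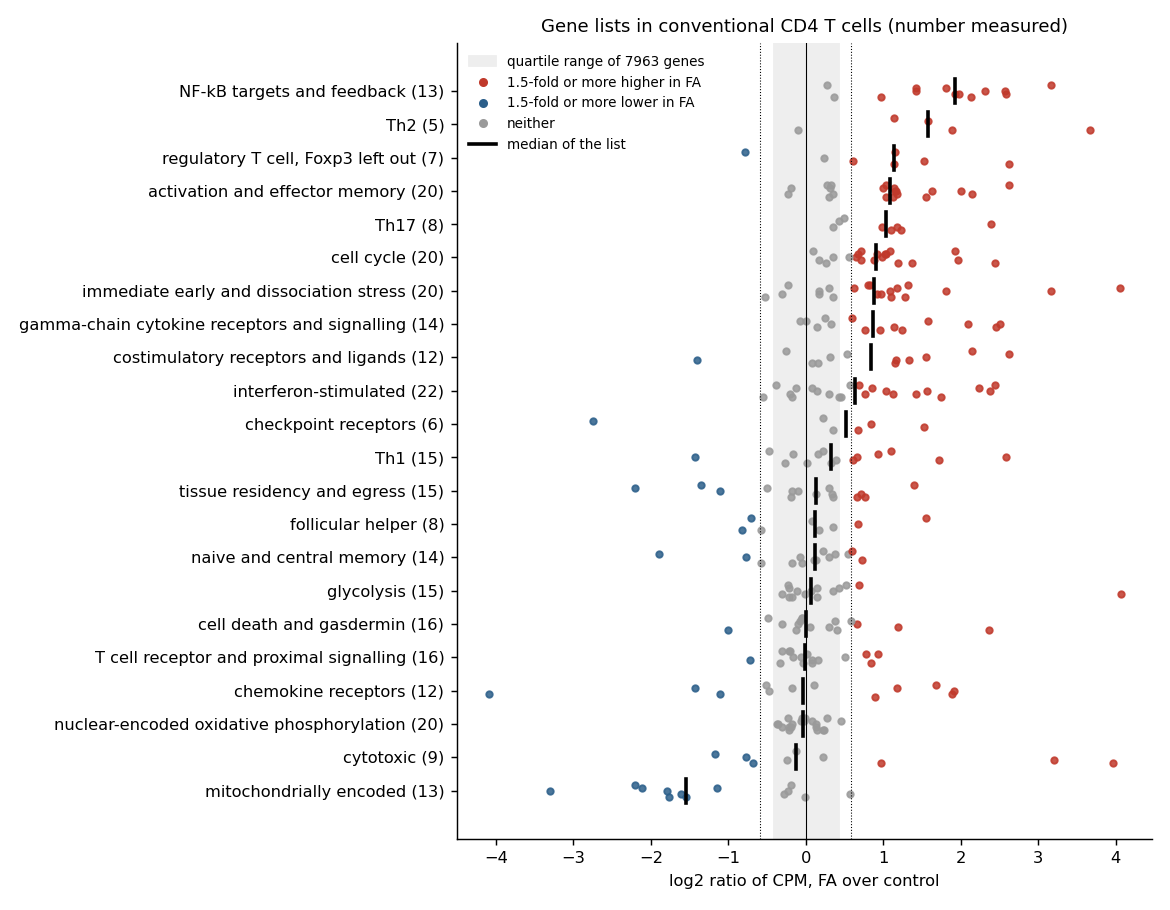
Log2 ratio of CPM (FA over control) for each measured gene of 22 lists in conventional CD4 T cells; black bars are list medians, dotted lines the 1.5-fold limits, and the grey band the quartile range of all 7963 measured genes. The NF-kB list has a median of 1.92 and the mitochondrially encoded list of -1.54, while the T cell receptor list sits at -0.01.

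Cytokine genes were each found in a part of the FA members. Il17a, which encodes the neutrophil-recruiting cytokine IL-17A, had 314 UMIs (260 CPM) in 35 FA members and was listed at 0 throughout the control library, so no fold is given. In each library the deposited matrix lists a gene above 0 only where at least 10 barcodes hold it, so a gene of fewer control barcodes would also appear at 0. The 5 FA members with most Il17a held 48.7% of its UMIs, and the median over the 35 cells was 5 UMIs. Il17a was also found in other FA T cells: 1323 CPM in the Trdc gate (Cd3 cells with a Trdc UMI, a gamma delta chain, and no Cd4, Cd8 or Foxp3 UMI), 379 CPM in Cd3 cells without Cd4, Cd8 or Foxp3 UMIs, and 29.7 CPM in the CD8 gate. In FA B cells it had 0 CPM. Il22, a second Th17 product that acts on epithelium, had 33 UMIs in 8 FA members, and Il17f had 5 UMIs in 5 FA members; both were listed at 0 throughout control.

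Ifng, the Th1 cytokine gene, had 523 UMIs (433 CPM) in 118 FA members and 62 UMIs (132 CPM) in 24 control members, a ratio of 3.29 (2.52 to 4.35). Its thinned share was 22.9% of FA members (18.3 to 27.9) and 10.5% of control members (5.16 to 18.5), with 0.916% of FA and 0.283% of control B cells; unthinned shares were 37.3% of FA and 25.3% of control members. Tbx21, the Th1 master factor, was 48.0 CPM in FA and 38.2 CPM in control members, with a ratio of 1.26 (0.73 to 2.27). Stat4, which signals below IL-12, had a ratio of 1.90 (1.40 to 2.63), and Bhlhe40, a factor needed for effector cytokine output in mice, 5.98 (4.39 to 8.35). Ccl5, a chemokine of effector T cells, was 1318 CPM in FA and 1183 CPM in control members (1.11, 1.01 to 1.23). The Th1 list as a whole had 6 of 15 genes higher and 1 lower, with a median log2 ratio of 0.33. The lower gene was Cxcr3, given with the chemokine receptors. Ifng was also higher in FA in the CD8 gate, at 657 CPM in FA and 156 CPM in control cells, a ratio of 4.22. Of the same 15 genes 6 were higher and 0 lower in that gate, with a median of 0.21. There 12.8% of all genes were higher.

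For Th17, 5 of 8 measured genes were higher and 0 lower, with a median log2 ratio of 1.04. Ccr6, a homing receptor of Th17 cells, had a ratio of 2.25 (1.1 to 5.20). Without the 35 FA members that held Il17a, Ccr6 had a log2 ratio of -0.09 and the list a median of 0.42. Il17a was listed at 0 throughout control, so only FA members were left out, chosen by a Th17 gene. A fall was thus built into this setting, and it is no test of which cells carry the difference. Rora, a nuclear receptor expressed in Th17 cells, had a ratio of 1.27 (0.998 to 1.63), Stat3 of 1.40 (1.01 to 1.98) and Tmem176a of 2.15 (1.56 to 3.02). In the CD8 gate the same 8 genes had a median log2 ratio of -0.57, with 0 higher and 4 lower, where 20.9% of all genes were lower. Tmem176b, one of a pair of ion channel genes used as Th17 markers, had a log2 ratio of 0.98 in the members and -1.01 in the CD8 gate. Without members holding Il17a its log2 ratio was 0.73. The members share their 2 libraries with the CD8 gate, and no test of this difference was possible.

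Th2 genes were sparse: 5 of the 12 listed were measured, of which 4 were higher in FA and 0 lower. Areg, which encodes the tissue repair factor amphiregulin, had 163 UMIs (135 CPM) in 36 FA members and 5 UMIs (10.6 CPM) in 3 control members, a ratio of 12.7 (5.34 to 39.7). Areg was also 154 CPM in FA and 6.999 CPM in control Cd3 cells without Cd4, Cd8 or Foxp3 UMIs. Il4ra, the receptor subunit of IL-4 and IL-13, had a ratio of 2.99 (1.63 to 5.995), and Stat6, which signals below it, of 2.21 (1.19 to 4.49); thinned to 1000 UMIs per cell Stat6 had a log2 ratio of 0.36. Gata3, the Th2 factor, was 148 CPM in FA and 159 CPM in control members (ratio 0.931, 0.707 to 1.24). Il4 had 9 UMIs in 2 FA members and 2 UMIs in 2 control members, and Il13 had 8 UMIs in 1 FA member.

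Each FA member was also described by which of these cytokine genes it held, first Il17a, then Ifng. That gave 35 Il17a cells, 113 Ifng cells and 168 FA members with neither; in control it gave 0, 24 and 71 cells in the same order. Of the 118 FA members with Ifng, 5 (4.24%) also held Il17a, against 35 (11.1%) of all 316 FA members. Apart from the genes that define them, the groups of cells differed in homing and effector genes. Il17a cells had 1121 CPM of Icos (958 to 1303) and 1028 CPM of Ctla4, against 475 CPM of Icos and 212 CPM of Ctla4 in Ifng cells. Ccr6 was 219 CPM in Il17a cells and 0 in Ifng cells, where the Poisson limit was 8.68 CPM. Ifng cells had 2470 CPM of the chemokine gene Ccl5 and 569 CPM of the cytotoxic granule gene Nkg7, against 119 CPM of Ccl5 and 33.2 CPM of Nkg7 in Il17a cells. FA cells with neither cytokine had 1966 CPM of Klf2, the factor that keeps T cells in circulation, and 176 CPM of Lef1, a factor of naive cells, against 1240 CPM of Klf2 and 13.3 CPM of Lef1 in Il17a cells. Nfkbia stood between 2265 and 3257 CPM in the 3 FA groups of cells, and at 323 CPM in control Ifng cells and 252 CPM in control cells with neither. Median depth was 3617 UMIs in Il17a, 3251 in Ifng and 2926.5 in the other FA cells. These groups were cut on sparse UMIs of the same cells and are ranges, not cell types.

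**Figure D3:**
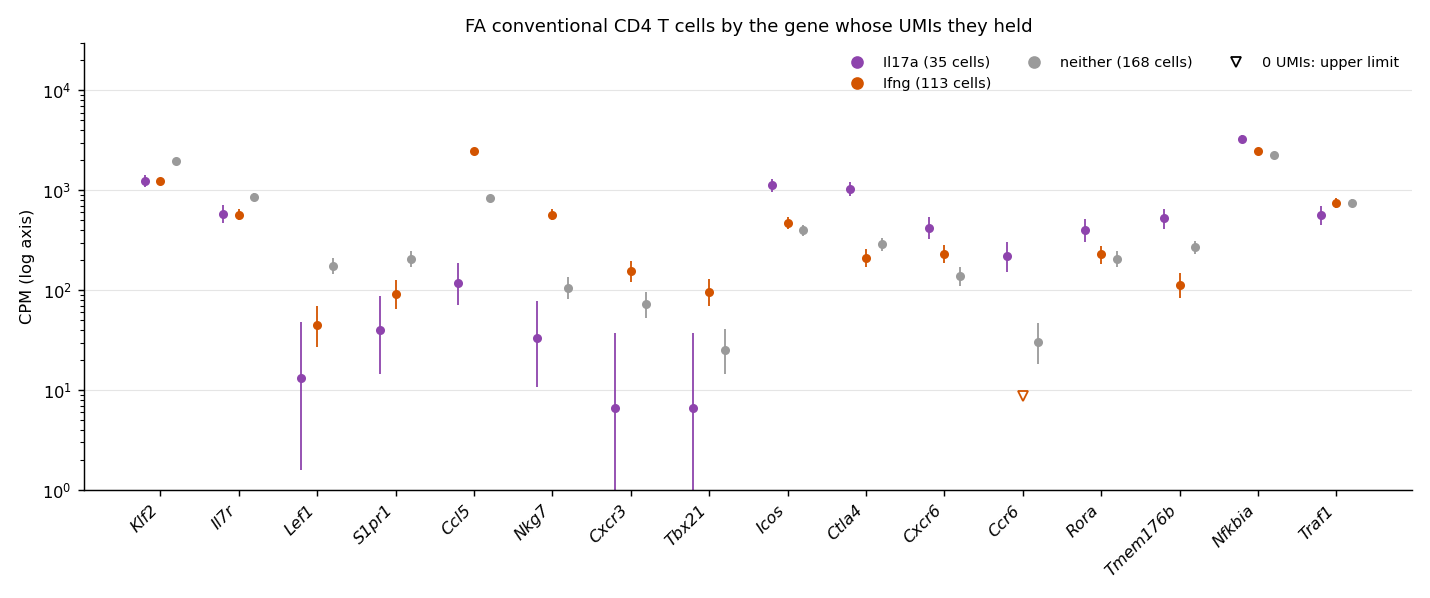
CPM (log axis, exact 95% Poisson intervals) in FA conventional CD4 T cells sorted by whether a cell held Il17a, then Ifng, or neither; an open triangle is the upper limit of a gene with 0 UMIs. Il17a cells lie highest for Icos, Ctla4 and Ccr6, Ifng cells for Ccl5 and Nkg7, cells with neither for Klf2 and Lef1, and Nfkbia is between 2265 and 3257 CPM in each.

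Receptors that share the gamma chain take up IL-2, IL-4, IL-7 and IL-21. Of 14 genes of these receptors and their signalling, 9 were higher and 0 lower. The median log2 ratio was 0.86 (0.56 without cells over 10000 UMIs). Cish and Socs3, feedback inhibitors of STAT signalling, led the list. Cish had 364 UMIs (301 CPM) in FA and 25 UMIs (53.1 CPM) in control members, a ratio of 5.68 (3.78 to 8.89), and Socs3 had a ratio of 5.50 (3.53 to 9.01). Il2ra, the high-affinity IL-2 receptor, was sparse, with 34 UMIs in 26 FA and 6 UMIs in 6 control members. Il7r, the receptor of the survival cytokine IL-7, had a ratio of 1.51 (1.31 to 1.76), from 724 CPM in FA and 478 CPM in control members; it stayed past the fold in 9 of 16 alternatives. Il2rg, the shared chain itself, had a ratio of 1.69 (1.33 to 2.17), and Jak1, a kinase bound to these receptors, of 1.11 (0.911 to 1.35). In the CD8 gate 5 of the 14 genes were higher, where 12.8% of all genes were, and the median log2 ratio was 0.36.

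Among checkpoint genes, Ctla4, an inhibitory receptor that competes with CD28, had 428 UMIs (354 CPM) in 127 FA members and 58 UMIs (123 CPM) in 20 control members, a ratio of 2.88 (2.18 to 3.85). Ctla4 is also a regulatory T cell gene, and only 8 FA and 2 control cells met the rule with a Foxp3 UMI. Whether regulatory cells were few or Foxp3 was rarely captured cannot be told apart here. Regulatory cells without a Foxp3 UMI can lie among the members. Of the regulatory list without Foxp3, 5 of 7 genes were higher and 1 lower, while Ikzf2 was 125 CPM in FA and 106 CPM in control members, a ratio of 1.18 (0.85 to 1.66). Capg, an actin-capping protein, had a ratio of 1.52 (1.20 to 1.94), but its call held in only 8 of 16 alternatives and its log2 ratio was -0.10 without members holding markers of other cell types. The lower gene was Nrp1, at 88.6 CPM in FA and 152.9 CPM in control members. Its direction turned without likely doublets (log2 ratio 0.32), its call was lost without members holding markers of other cell types (-0.17), and unthinned 25.3% of FA and 20% of control members held it. Pdcd1, which encodes PD-1, had a ratio of 1.60 with an interval of 0.971 to 2.75, and a log2 ratio of 0.087 among members with 2 or more Cd4 UMIs. Cd5, a brake on receptor signalling, had a ratio of 1.79 (1.44 to 2.26) and Cd96 of 1.17 (0.704 to 2.02). Cd200 was 10.8 CPM in FA and 72.2 CPM in control members, 6.71-fold lower (3.45 to 13.8). Among follicular helper genes 2 of 8 were higher and 2 lower; Slamf6 had a ratio of 1.06 (0.77 to 1.47), and Sh2d1a was 70.4 CPM in FA and 114.7 CPM in control members. Cxcr5, the follicle homing receptor, had 4 FA UMIs and 1 control UMI, and Il21 had 2 FA UMIs and was at 0 in control members.

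Homing genes were divided. Cxcr4, the receptor of CXCL12, was 190.4 CPM in FA and 59.5 CPM in control members (ratio 3.20, 2.16 to 4.93), Ccr4 was 47.2 CPM in FA and 12.7 CPM in control members, and Ccr2, the receptor of CCL2, was 158 CPM in FA and 84.9 CPM in control members. Cxcr6, a receptor of tissue-resident T cells, had 250 UMIs (207 CPM) in 112 FA members and 210 UMIs (446 CPM) in 56 control members, 2.15-fold lower (1.78 to 2.60). Its thinned share was 17.8% of FA members (13.7 to 22.5) and 38.9% of control members (29.1 to 49.5), and unthinned 35.4% of FA and 58.9% of control members. Cxcr3, which guides Th1 cells to inflamed tissue, was 93.6 CPM in FA and 253 CPM in control members, 2.70-fold lower (2.07 to 3.53). Itga1, an integrin of resident memory cells, had 35 UMIs (29.0 CPM) in 30 FA members and 63 UMIs (134 CPM) in 31 control members, 4.62-fold lower (3.01 to 7.19). In the CD8 gate Cxcr6 was also lower, at 189.5 CPM in FA and 427 CPM in control cells, as was Itga1, at 72.6 CPM in FA and 154 CPM in control cells. For these 3 genes the log2 ratio kept its sign in every alternative run (16 for Cxcr6 and Cxcr3, 15 for Itga1). Over the chemokine receptor list 5 of 12 were higher and 3 lower. Ccr9, the third of the lower genes, had 0 FA and 20 control UMIs, 13 of them in 1 cell. Of the residency and egress list 4 of 15 were higher (Rgs1, Itgb1, Vps37b and Emb) and 3 lower; the third lower gene, S100a6, took 57.4% of its control UMIs from 1 cell and had a log2 ratio of -0.21 with the richest cells left out. Klf6 (1.23, 1.12 to 1.34) and Crip1 (0.937, 0.856 to 1.03) stayed under the fold. S1pr1 and Klf2, which let T cells leave tissue, had ratios of 0.886 (0.674 to 1.17) and 1.1 (1.01 to 1.20).

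**Figure D4:**
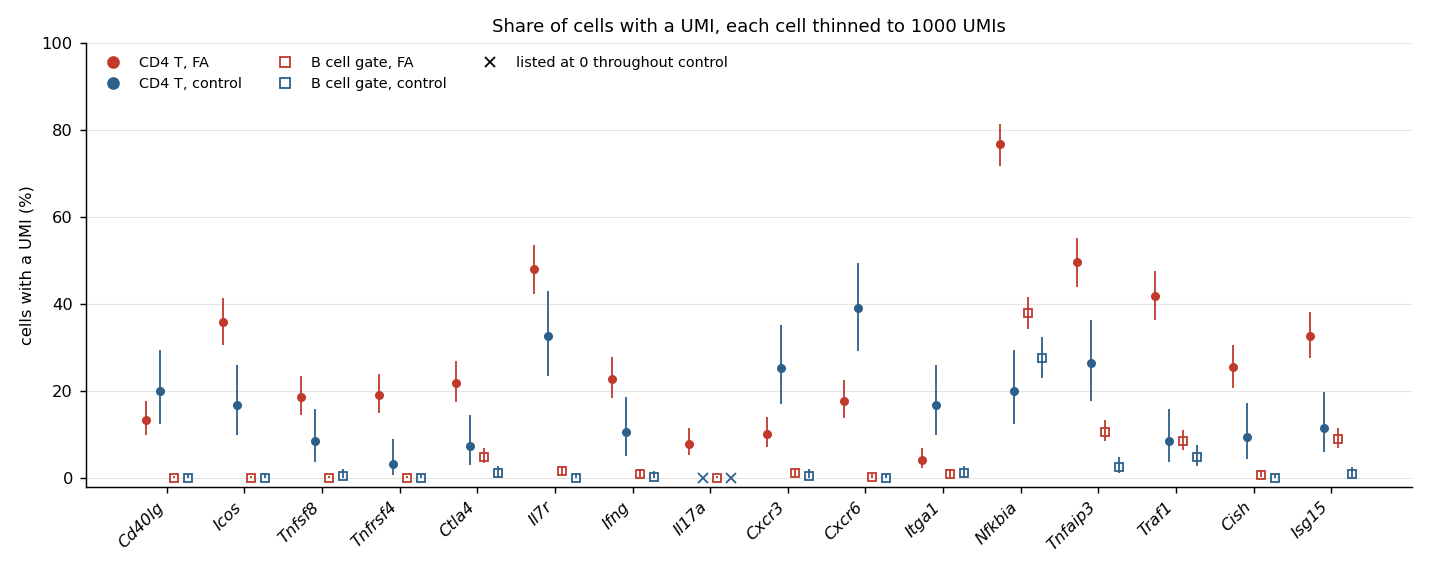
Share of cells with a UMI of each gene, each cell thinned to 1000 UMIs, with exact 95% Clopper-Pearson intervals; filled circles are conventional CD4 T cells, open squares the B cell gate, FA red and control blue, and a cross marks a gene listed at 0 throughout control. FA members exceed control members for Icos, Tnfrsf4, Nfkbia and Traf1, and lie below them for Cxcr3, Cxcr6 and Itga1.

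The T cell receptor and its proximal signalling genes differed little: 3 of 16 were higher, Cd5 and Ptpn22 among them, 1 was lower (Trbc1) and the median log2 ratio was -0.01. Trac, the constant region of the alpha chain, was 652 CPM in FA and 618 CPM in control members, a ratio of 1.05 (0.921 to 1.21). Lck, the kinase bound to CD4, was 372 CPM in FA and 380.1 CPM in control members (0.978, 0.821 to 1.17), and the phosphatase gene Ptprc had a ratio of 0.962 (0.868 to 1.07). Trbc1 was 1.65-fold lower (1.45 to 1.87) and Trbc2 had a ratio of 0.895 (0.808 to 0.993); the 2 constant regions are near copies whose reads the counting may divide. Naive and central memory genes were higher for 2 of 14 and lower for 2, with Ccr7 at a ratio of 1.08 (0.767 to 1.54) and Lef1 1.71-fold lower (1.29 to 2.26). Satb1 (1.23, 0.965 to 1.59) and Tcf7 (1.45, 1.12 to 1.91), factors of naive cells, stayed under the fold.

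Interferon-stimulated genes were higher for 11 of 22 and lower for 0, with a median log2 ratio of 0.63. Ifi27l2a had 3080 UMIs (2550 CPM) in 285 FA members and 220 UMIs (467 CPM) in 51 control members, a ratio of 5.46 (4.76 to 6.29). Isg15, a ubiquitin-like protein of the type I interferon response, had a ratio of 3.36 (2.68 to 4.26) and Irf1 2.96 (2.19 to 4.09). Not all members of the list shared this: Ly6e (0.872, 0.783 to 0.972) and Ly6a (0.885, 0.786 to 0.997), surface proteins, and the interferon-induced GTPase genes Igtp (0.682, 0.465 to 1.01), Ifi47 (0.764, 0.574 to 1.03) and Gbp2 (1.23, 0.725 to 2.18) did not pass the fold. In the CD8 gate 11 of 22 were higher, with a median of 0.70, where 12.8% of all genes were higher.

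Immediate early and stress genes, which dissociation of tissue is known to induce, were higher for 13 of 20 and lower for 0 (median log2 ratio 0.88). Atf3 had 726 UMIs (601 CPM) in FA and 17 UMIs (36.1 CPM) in control members, a ratio of 16.7 (10.3 to 28.7), and Junb was 3035 CPM in FA and 1338 CPM in control members. Fos (1.27, 1.19 to 1.36) and Jun (1.13, 1.04 to 1.22) stayed under the fold, and Egr1 had a ratio of 0.694 (0.566 to 0.853). In the CD8 gate 11 of the 20 genes were higher and 0 lower, with a median of 0.69. There 12.8% of all genes were higher. Nfkbia is counted in this list as well as in the NF-kB list. Other lists also share genes, such as Tnfrsf4 in the activation, costimulatory and regulatory lists, so the list counts are not independent. The part of dissociation in the differences of the NF-kB and activation lists was not tested.

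Cell cycle genes were higher for 15 of 20 and lower for 0, with a median log2 ratio of 0.90. Hmgb2, a chromatin protein, was 1335 CPM in FA and 654 CPM in control members (2.04, 1.81 to 2.31), and Stmn1, a tubulin-binding protein, had a ratio of 1.64 (1.303 to 2.09). The tubulin genes Tubb5 (1.20, 1.01 to 1.43) and Tuba1b (1.28, 0.996 to 1.65) stayed under the fold. Mki67, a marker of cycling cells, had 269 UMIs in 54 FA members and 46 UMIs in 6 control members, and Top2a, a DNA topoisomerase of dividing cells, had 275 UMIs in 58 FA members and 58 UMIs in 9 control members. Of control Top2a UMIs 55.2% came from 1 cell. Members with a UMI of Cd79a, Cd79b, Csf1r, Adgre1, Slc34a1, Lrp2, Pecam1 or Trdc were 131 in FA and 42 in control, of which 74 FA and 17 control members held Pecam1, a gene that T cells can also use. Without these members the list median was -0.08, Mki67 had a log2 ratio of -0.06, Top2a of -0.20, Stmn1 of -0.39 and Hmgb2 of 0.30. Without likely doublets by simulated pairs the median was 1.21. In the CD8 gate 15 of the 20 genes were also higher and 0 lower, with a median of 0.89. There 12.8% of all genes were higher.

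Nuclear genes of energy metabolism differed little. Of 20 oxidative phosphorylation genes 0 were higher and 0 lower, with Cox4i1 at a ratio of 1.09 (0.971 to 1.24), Uqcrh at 1.16 (1.02 to 1.33), Atp5e at 0.961 (0.844 to 1.097) and Cox8a at 0.860 (0.763 to 0.972). Of 15 glycolysis genes 2 were higher and 0 lower, led by Hk2, a hexokinase, with 43 UMIs in 31 FA members and 1 UMI in control members (ratio 16.8, 2.85 to 677). Gapdh (0.922, 0.818 to 1.04), Ldha (1.27, 1.06 to 1.53), Pkm (0.997, 0.812 to 1.23) and Aldoa (0.861, 0.703 to 1.06) did not pass the fold. Mitochondrially encoded genes were lower for 8 of 13, with a median log2 ratio of -1.54, and mt-Cytb was 2640 CPM in FA and 9105 CPM in control members. mt-Nd1, mt-Nd2 and mt-Nd4 had ratios of 0.344, 0.328 and 0.231. The median mitochondrial share per member ran the other way, 1.55% in FA and 0.924% in control. Control UMIs of mt-Cytb came from 30 of 95 members, and 6 control and 3 FA members exceeded a share of 20%; without these members the list median was -0.89. Mitochondrial RNA was high in the control library as a whole, with mt-Cytb at 6795 CPM in other FA barcodes and 31284 CPM in other control barcodes, and its part as free RNA was not tested.

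Of the cell death list 3 of 16 were higher and 1 lower, with a median log2 ratio of 0.00. Gsdmd, the gasdermin of inflammasome-driven lysis, had 23 UMIs (19.0 CPM) in 22 FA members and 18 UMIs (38.2 CPM) in 15 control members, 2.01-fold lower (1.02 to 3.89). Gsdme, the gasdermin cut by caspase 3, had 5 UMIs in 5 FA members and 8 UMIs in 7 control members, under the minimum used. In the CD8 gate Gsdmd did not differ, at 20.9 CPM in FA and 21.1 CPM in control cells (ratio 0.989). Gsdme was higher there, at 12.0 CPM in FA and 2.91 CPM in control cells (log2 ratio 2.05, 0.585 to 3.99). Bcl2l11, which encodes the death promoter BIM, had 145 UMIs (120.1 CPM) in FA and 11 UMIs (23.4 CPM) in control members, a ratio of 5.14 (2.79 to 10.5). Mcl1, a survival gene, was 658.2 CPM in FA and 439.6 CPM in control members (1.497, 1.28 to 1.75), just under the fold. Pycard (1.04, 0.840 to 1.29), Bcl2 (0.952, 0.735 to 1.24), Casp8 (0.965, 0.662 to 1.43) and Bax (1.23, 0.926 to 1.65) did not pass it. Casp1 (1.58, 0.934 to 2.82) and Ripk3 (2.27, 0.947 to 6.62) passed it with intervals that include 1.

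By size alone, among genes with at least 100 CPM and 50 UMIs in the higher library and at least the level of all other kept barcodes there, the 10 with the highest ratio were Rrad, Areg, Gadd45b, Cenpa, Nfkbia, Cxcl10, Ifrd1, H2ac8, Furin and Tnfrsf4. Gadd45b, a stress gene that NF-kB induces, was 1355 CPM in FA and 136 CPM in control members (ratio 9.97, 7.76 to 13.0). Furin, a protease that matures TGF-beta, was 310.5 CPM in FA and 46.7 CPM in control members (6.65, 4.32 to 10.7). Over all kept barcodes outside the members the 10 genes were also higher in FA. Furin was so only slightly (66.7 CPM in FA, 61.8 CPM in control). H2ac8 stood there at 137 CPM in FA and 9.45 CPM in control. Ifrd1 stood at 294 CPM in FA and 36.6 CPM in control, and Gadd45b at 352 CPM in FA and 49.8 CPM in control. Cxcl10, the ligand of CXCR3, had 2017 UMIs (1670.0 CPM) in 153 FA members and 94 UMIs (199.6 CPM) in 8 control members. Of the control UMIs 46.8% lay in 1 cell. In the CD8 gate Cxcl10 stood at 336 CPM in FA and 105.4 CPM in control. Other T cells held it too: 1355 CPM in FA and 177 CPM in control Cd3 cells without Cd4, Cd8 or Foxp3 UMIs. The Trdc gate had 1027 CPM in FA and 44.4 CPM in control, and the 8 FA cells with a Foxp3 UMI had 5536 CPM. B cells had 338 CPM of Cxcl10 in FA and 73.7 CPM in control. All kept barcodes outside the members had 364 CPM in FA and 50.2 CPM in control. No FA member held over 50% of the FA UMIs of any of the 268 genes counted higher by this rule, whereas 18 of the 98 lower genes each took over 50% of theirs from 1 control cell. The 10 lowest were Upk3a, Sptssb, Sprr1a, Gstm1, Upk1a, Foxq1, Aqp1, Krt18, Tcf4 and Ly6d, led by the control cell with urothelial genes: 846 of 863 control UMIs of Gstm1 lay in it. With genes limited to those in 10% or more of the members of the higher library, and at most 20% of UMIs in 1 cell, a limit chosen after the values were seen, the higher 10 were the same. The lower 10 were then Xcl1, Lztfl1, Itga1, Mxd4, Rcbtb2, Cwf19l2, Cxcr3, Cd27, Rhob and Tspan32. Xcl1, a chemokine that attracts cross-presenting dendritic cells, had 30 UMIs in 15 FA members and 61 UMIs in 28 control members, 5.21-fold lower (3.32 to 8.36), and Mxd4, a repressor of the MYC network, was 83.6 CPM in FA and 257 CPM in control members.

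Against the CD8 gate, with 922 FA and 290 control cells, 5621 genes were measured in both libraries. In both libraries 150 of them (2.67%) were 1.5-fold or more higher in the CD4 members and 165 (2.94%) lower, while 66 passed the fold in opposite directions. With every cell thinned to 1000 UMIs 26 were higher and 69 lower. Cd40lg led, 12.3-fold higher in FA (9.06 to 17.1) and 22.7-fold higher in control (11.3 to 51.7). Tnfsf11, which encodes RANK ligand, was 10.2-fold higher in FA and 12.9-fold in control, Tnfsf8 6.05-fold in FA and 5.26-fold in control, and Asb2, a ubiquitin ligase subunit, 5.94-fold in FA and 5.22-fold in control. Podnl1 was 6.08-fold higher in FA and 4.57-fold in control. Of the other leading genes, Krt5, Tyrobp and Cybb took 95.2%, 72.9% and 47.8% of their control UMIs from 1 member. At the low end were cytotoxic and natural killer receptor genes: Gzma was 33.1 CPM in FA members and 866 CPM in the FA CD8 gate, and 2.12 CPM in control members and 569 CPM in the control CD8 gate. Eomes, a factor of cytotoxic cells, was 1.66 CPM in FA members and 90.2 CPM in the FA CD8 gate, and 10.6 CPM in control members and 126 CPM in the control CD8 gate. Prf1, Klre1, Klrc1, Gzmk, Cd160 and Wdr95 completed the 8 lowest. Within the members, 3 of 9 cytotoxic genes were higher in FA and 3 lower. Gzmb had 71 UMIs in 21 FA members and 0 in control members. That is 9.23-fold higher with the control 0 set to 3 counts, a value without an interval. Gzma had 40 FA UMIs, 47.5% of them in 1 cell. Nkg7 (0.622, 0.518 to 0.747) and Klrk1 (0.445, 0.319 to 0.621), a killer cell receptor, were lower; without members holding markers of other cell types Klrk1 had a log2 ratio of 0.014, and the call was lost. Against the Trdc gate, which held 101 FA but only 16 control cells, Tnfsf8 was 10.8-fold higher in FA members (6.12 to 21.2) and Ctla4 8.26-fold (5.28 to 13.7). The control Trdc gate held 1 Tnfsf8 and 2 Ctla4 UMIs, so the control ratios of 8.60 (1.47 to 347) and 5.54 (1.47 to 46.9) are known only within wide limits.

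**Figure D5:**
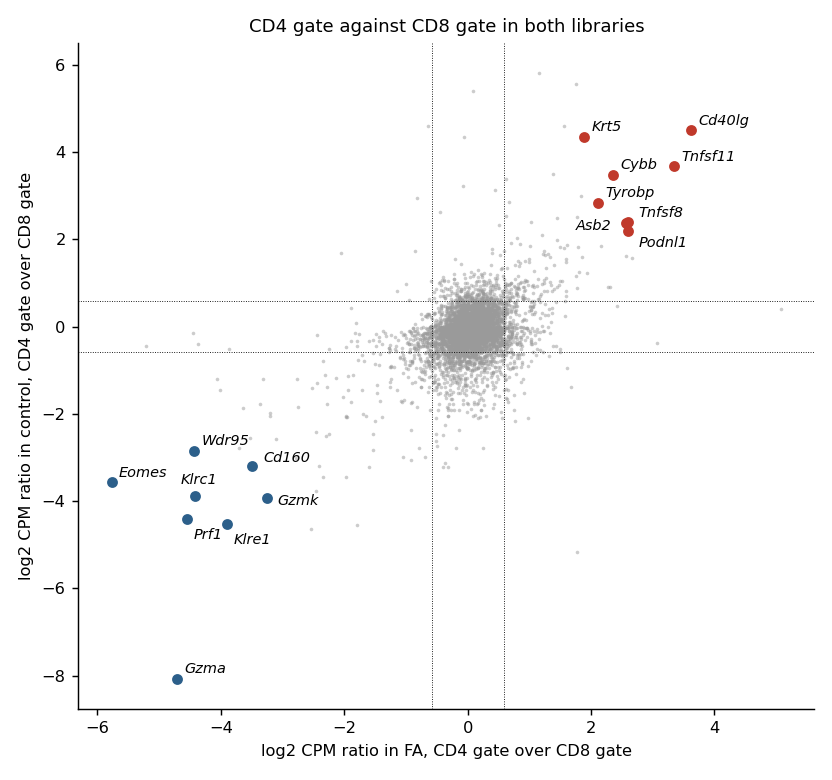
Log2 CPM ratio of conventional CD4 T cells over the CD8 gate in FA (horizontal) and in control (vertical) for the measured genes left after the exclusions for named genes; dotted lines are the 1.5-fold limits, red the 8 highest and blue the 8 lowest by the smaller library. Cd40lg and Tnfsf11 lie far up in both libraries and Gzma, Eomes and Prf1 far down.

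Markers of other cell types were present at levels that differed between the groups. The 4 neutrophil markers summed to 878 CPM in FA members and 2.12 CPM in control members, 91.0% and 2.03% of their level over all kept barcodes; S100a8 had 374 UMIs in 4 FA members and S100a9 560 UMIs in 3. Plasma cell markers summed to 3783 CPM in FA and 30467 CPM in control members, of which Igkc took 56.9% of its 13056 control UMIs from 1 cell and 96.4% of its 4258 FA UMIs from 1 cell. B cell markers summed to 129.99 CPM in FA and 354.6 CPM in control members, the 6 macrophage markers outside the rule to 1196 CPM in FA and 792 CPM in control members, and dendritic cell markers to 539 CPM in FA and 537 CPM in control members. Endothelial markers summed to 77.0 CPM in FA and 947 CPM in control members. The 8 proximal tubule markers summed to 2455 CPM in FA and 2576 CPM in control members, 11.6% of the level over kept barcodes in each. Their composition differed: Spp1, an injury gene, was 1553 CPM in FA members with 16300 CPM in other FA barcodes, and 108 CPM in control members with 989 CPM in other control barcodes. The stromal markers Col1a1 and Pdgfrb were at 0 in both. Their part in the differences above was not tested.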

How the data were processed

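The authors deposited UMI counts of both samples in 1 matrix (whole numbers, checked over 21855 genes and 28678 barcodes). The submitters' processing notes name Seurat and mm10; aligner and counter: not given in the sources used here. Names starting FA3 were taken as FA barcodes and names starting C3, by elimination, as control. The libraries carry different gene name versions, so 230 pairs of names were joined through RefSeq synonyms (GRCm38.p6), and no fold was computed for a gene listed at 0 in all barcodes of a library. The members, gene lists and tests were chosen with earlier results of these data known.

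Counts were summed over members per library and given as CPM with exact 95% Poisson intervals. Ratios have exact conditional binomial intervals and shares have Clopper-Pearson intervals, all covering counting error only, since each group has 1 library. A ratio was counted from 20 UMIs over both libraries, and a 0 within the members was set to 3 counts. Named genes are the 10 highest and lowest ratios with at least 100 CPM and 50 UMIs, and for each described list the 4 measured genes with most UMIs and others named after their values were seen. Cells were thinned to 1000 UMIs for shares. Doublets were scored from simulated pairs and left out, as an alternative, at 0.8% per 1000 barcodes. The calculations were tested on simulated data. Python 3.11.15, numpy 2.4.6, scipy 1.17.1, pandas 2.3.3, scikit-learn 1.9.0 and matplotlib 3.10.9 were used.

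Member UMIs were 1207803 in FA and 470934 in control. Alternatives varied the filters, the gate, doublets, scaling, thinning, the UMI minimum and gene names. Leaving out members with over 10000 UMIs or with Il17a, requiring 2 Cd4 UMIs, and the limit on 1 cell were chosen after seeing the data.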

Additional observations from a re-analysis of the deposited data

How the results depend on the processing

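The median of the NF-kB list stayed past the fold in 16 of 16 alternatives (1.51 to 2.15), as did that of the activation list (0.75 to 1.22). Of 2406 comparisons of single named genes across alternatives 2133 kept their value within the counting interval, 264 moved and 9 reversed. With a mitochondrial share of at most 20% the members formed 2.27% of kept barcodes in FA and 1.85% in control, and the mitochondrially encoded list had a median log2 ratio of -0.89. With 1000 UMIs or more per barcode the FA share was 2.25%. Without members holding UMIs of other cell type markers the shares of kept barcodes were 1.16% in FA and 0.842% in control, those of Cd3 cells 8.42% in FA and 8.37% in control, and 883 genes were lower. In that setting the cell cycle list had a median of -0.076, Mki67 of -0.057, Top2a of -0.20, Stmn1 of -0.39, Capg of -0.10, Klrk1 of 0.014 and Aqp1 of 2.04, all on the log2 scale and of opposite sign to the reported value, and the mitochondrially encoded list had -1.84. Without likely doublets 863 genes were lower and Nrp1 had a log2 ratio of 0.32. Thinning to 1000 UMIs gave 804 higher and 476 lower genes, medians of 0.61 for the Th2 and -0.51 for the chemokine receptor list, and 26 genes higher and 69 lower than in the CD8 gate. With the cell richest in each gene left out 835 genes were lower. A minimum of 100 UMIs gave 478 higher and 206 lower genes, and no minimum gave 2334 higher and 3820 lower genes; fewer or more genes were measured in these settings by construction. The T cell receptor list had a median of -0.25 without members over 10000 UMIs and 0.41 with 2 or more Cd4 UMIs, where 923 genes were higher, 830 lower, Tnfsf11 had -0.25, the immediate early list had 0.44 and the mitochondrially encoded list -0.98. Ccr6 had a log2 ratio of -0.088 without members holding Il17a. Beyond the settings that change how many genes or cells are counted, the cause was not tested. With 95 control members, genes of few UMIs have wide intervals, and a gene listed at 0 throughout control was held by fewer than 10 control barcodes or was not annotated there. No paired analysis was possible because each group has 1 library.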
